A study of Mus musculus with 4 samples.

Results

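The genes described here encode 9 enzymes, 7 of the pentose phosphate pathway and 2 further cytosolic sources of NADPH. They were taken by name: every non-control probe of the array whose gene name was G6pdx, Pgls, Pgd, Rpia, Rpe, Tkt, Taldo1, Idh1 or Me1. This gave 11 probes, 3 for Me1 and 1 for each other gene, of 39429 probes with 30175 gene names on the array. The cells were NIH-3T3:Per2-Luc, a mouse fibroblast line that carries luciferase under the Per2 promoter, and their RNA was hybridized to 4 one-color arrays of 1 slide. The control array held cells given fresh medium without H2O2 and carried the time 4 h in its label. The other arrays held cells that had received a cOS-pulse (critical oxidative stress, 5 mM H2O2 for 10 min) and were taken 4 h, 20 h or 32 h later. Each condition had 1 array, so no test could be run and no p-value is given, and all 3 time points were compared with the same control. The pulse and the elapsed time therefore cannot be told apart at 20 h and 32 h.

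The pentose phosphate pathway branches from glycolysis at glucose-6-phosphate. Its oxidative steps reduce NADP+ to NADPH, and its non-oxidative steps shuffle sugar phosphates between ribose for nucleotides and the intermediates of glycolysis. NADPH drives the recycling of glutathione and thioredoxin, through which fibroblasts and other cells dispose of H2O2. Cytosolic isocitrate dehydrogenase (Idh1) and malic enzyme (Me1) make NADPH outside the pathway.

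Promoter windows of 250 bases before to 50 bases after each annotated start (RefSeq, GRCm38.p6) were matched for all 9 genes, giving 12 windows. They were searched on both strands for TGACNNNGC, the core of the antioxidant response element to which Nrf2 binds, and for CACGTG, the E-box to which CLOCK and BMAL1 bind. The first was in 3 of the 12 windows, 1 each of G6pdx, Me1 and Pgd, and in 12.4% of all 32851 windows. The E-box was in 0 of the 12 windows and in 7.2% of all windows. A match is a description of these letters and not a site of binding. The stretches with a match are shown for each gene that had one. Among the 9 genes, Pgd and Me1 had the highest ratios to the control at 4 h. Taldo1, the next highest at 0.59, had no match. Pgd and Me1 each also had a window without a match. The 4 h ratio of G6pdx was below 0, at -0.13, and within its spot error under the scaling used here. Under 5 other scalings it lay between -0.53 and -0.25, beyond that error on the lower side. Whether a match bears on these ratios was not tested. The stretches run 5′ to 3′ along the strand of the gene, which is the minus strand for all 3, and capitals mark the match. Distances are from the annotated start that a window was built on, not from the edge of the window. The Pgd window with the match lay downstream of its other window. Whether that match lies in coding sequence was not tested.
G6pdx, chrX:74428904-74428962, match on the opposite strand, beginning 57 bases before the start: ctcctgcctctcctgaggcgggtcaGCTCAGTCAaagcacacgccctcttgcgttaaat
Me1, chr9:86695912-86695945, match beginning 6 bases before the start: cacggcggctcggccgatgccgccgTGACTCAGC
Pgd, chr4:149166071-149166104, match beginning 3 bases after the start of the second of its windows: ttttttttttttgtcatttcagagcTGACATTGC

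Each probe was 60 bases long. Where a probe lies is given by the file's mm9 coordinates, which are those of the whole probe. The probe of Idh1 is shown because the late difference of this gene rests on it alone. In 1 of its reading frames it held 17 codons followed by a stop codon, in capitals. Another of its frames was open over all 19 codons. The Me1 probe A_55_P2016842 is shown because it lay apart from the other Me1 probes. Its first reading frame was open over all 20 codons and its second over all 19. Which frame of either probe is translated was not tested.
Idh1, A_51_P132978, first 56 bases, chr1:65206035-65206094: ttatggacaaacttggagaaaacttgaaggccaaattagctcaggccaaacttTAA
Me1, A_55_P2016842, chr9:86480571-86480630: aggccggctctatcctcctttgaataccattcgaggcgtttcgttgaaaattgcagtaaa

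Between 52.7% and 59.1% of all probes were well above background on the 4 arrays, and all 11 member probes were so on every array, with no member spot saturated. Each had 1 spot, and the scanner software gave that spot an error between 10.00% and 10.54% of its signal. Propagated to a log2 ratio this was about 0.20. It covers the spot only and says nothing of the spread between cultures, which 1 array per condition does not show. Signals below are multiples of the 75th percentile of all probes on the same array. Levels of different probes are not comparable with each other, since probes differ in how well they bind. The fibroblast markers were detected on all arrays for 10 of 12 genes, with Fap and Postn on none. Of the epithelial markers 1 of 4 was detected on all arrays (Krt8), and Cdh1, Epcam and Krt18 were detected on none. Of the leukocyte markers 2 of 3 were detected on all arrays and Ptprc, the defining one, on none. Cd3e read between 0.572 and 0.681. Cd68, on its probe A_55_P1961943, read 0.397 in the control, 1.68 at 4 h, 0.456 at 20 h and 0.480 at 32 h. Another Cd68 probe, A_55_P2067583, was detected on 2 arrays. Of the endothelial markers 2 of 3 were detected on all arrays (Pecam1 and Kdr), and of the 2 neural markers on the array 1 was (Tubb3). Kdr was detected so on its probe A_55_P2094469, while its probe A_51_P316553 was detected on 0 arrays. The part of other cell types in the results was not tested.

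In the oxidative branch, Pgd stood higher at 4 h alone, while G6pdx and Pgls, the enzymes of the steps before it, did not. G6pdx encodes glucose-6-phosphate dehydrogenase, which commits glucose-6-phosphate to the pathway and makes the first NADPH. Its probe (A_51_P187082, chrX:71654949-71655008) read 7.50 in the control, 6.87 at 4 h, 6.64 at 20 h and 7.30 at 32 h. The 4 arrays were close to each other. The log2 ratio to the control was -0.13 ± 0.20 (spot error) at 4 h, -0.18 ± 0.20 at 20 h and -0.04 ± 0.20 at 32 h, each within the spot error. At 4 h it lay above 33.3% of all measured probes. Under 5 other scalings the 4 h ratio was between -0.53 and -0.25, beyond the spot error. G6pd2, an autosomal copy of G6pdx, had a probe of its own that read between 0.149 and 0.160 on the 4 arrays. How far transcripts of one gene bind the probe of the other was not tested.

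Pgls encodes the lactonase between both dehydrogenases. Its probe (A_66_P108815, from 74118067 to 74118603 of chromosome 8) had 60 bases that spanned 537 bases of the genome, so it crosses an intron. It read 2.44 in the control, 1.62 at 4 h, 2.19 at 20 h and 2.03 at 32 h. The lowest signal was that at 4 h, with a log2 ratio of -0.59 ± 0.20, or 1.51-fold lower than the control. The later ratios were -0.15 at 20 h and -0.26 at 32 h.

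Pgd encodes 6-phosphogluconate dehydrogenase, which makes the second NADPH and releases ribulose-5-phosphate. Its probe (A_52_P84096, chr4:148524293-148524352) read 7.74 in the control, 17.2 at 4 h, 7.45 at 20 h and 7.14 at 32 h. The 4 h array stood apart, and the other 3 lay close together. The log2 ratio was 1.15 ± 0.20 at 4 h, or 2.22-fold, above 94.0% of the measured probes. At 20 h it was -0.06 and at 32 h -0.12.

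The difference between Pgd and G6pdx at 4 h was 1.28 ± 0.29 on the log2 scale, or 2.43-fold. A difference between probes of the same pair of arrays does not move when an array is multiplied by a constant, so it stands apart from the choice of scaling by percentile, median or spike-in. Between Pgd and Pgls the difference at 4 h was 1.74 ± 0.29. At 20 h Pgd and G6pdx differed by 0.12 and at 32 h by -0.08, within the spot error of about 0.29.

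**Figure D1:**
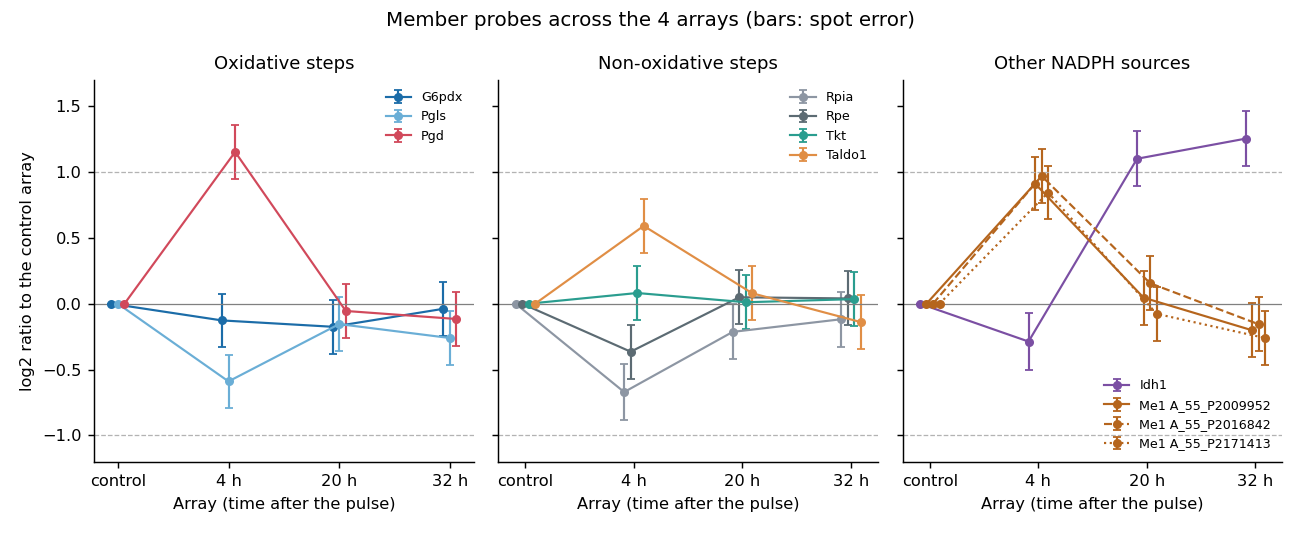
Log2 ratio to the control array (vertical axis) of each member probe on the control, 4 h, 20 h and 32 h arrays (horizontal axis), in 3 panels by role. Bars are the spot error of the ratio and dashed lines mark 2-fold. Pgd (1.15), Taldo1 (0.59) and the 3 Me1 probes (0.84 to 0.97) stand above the control at 4 h, and Idh1 stands above it at 20 h (1.10) and 32 h (1.25).

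Among the non-oxidative enzymes, under the scaling used here, Taldo1 was higher than the control at 4 h and Rpia and Rpe were lower. Tkt was within the spot error of the control. Rpia encodes the isomerase that turns ribulose-5-phosphate into ribose-5-phosphate, the precursor of nucleotides. Its probe (A_66_P109395, chr6:70716013-70716072) read 0.320 in the control, 0.201 at 4 h, 0.276 at 20 h and 0.295 at 32 h. The log2 ratio of -0.67 ± 0.21 at 4 h, or 1.59-fold lower, was the lowest of the 11 probes. The ratios of -0.21 at 20 h and -0.12 at 32 h were nearer to 0.

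Rpe encodes the epimerase that makes xylulose-5-phosphate from the same substrate. Its probe (A_55_P2024649, chr1:66766021-66766080) read 1.32 in the control, 1.02 at 4 h, 1.36 at 20 h and 1.35 at 32 h. Only the 4 h array was below the rest, with a log2 ratio of -0.36 ± 0.20. At 20 h and 32 h the ratios were 0.05 and 0.04.

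Tkt encodes transketolase, which moves carbon units between sugar phosphates and links the pathway back to glycolysis. Its probe (A_51_P394515, chr14:31386641-31386700) read 19.5 in the control, 20.6 at 4 h, 19.7 at 20 h and 20.0 at 32 h. These signals were nearly level. The log2 ratio at 4 h was 0.08 ± 0.20, and its sign turned under each of 5 other scalings, where it lay between -0.32 and -0.04. Under median scaling (-0.28) and spike-in scaling (-0.32) it lay beyond the spot error.

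Taldo1 encodes transaldolase, the partner of transketolase in the same exchange. Its probe (A_51_P401958, chr7:148588764-148588823) read 54.9 in the control, 82.7 at 4 h, 58.0 at 20 h and 49.8 at 32 h. The 4 h array was the highest, with a log2 ratio of 0.59 ± 0.20, or 1.51-fold, above 78.7% of the measured probes. At 20 h the ratio was 0.08 and at 32 h -0.14. Under quantile and spike-in scaling the 4 h ratio was 0.19, within the spot error. Within the 4 h comparison Taldo1 exceeded Tkt by 0.51 ± 0.29 and Rpia by 1.26 ± 0.29.

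The NADPH sources outside the pathway went separate ways in time. Me1 stood above the control at 4 h, and Idh1 stood above it at 20 h and 32 h. Me1 encodes cytosolic malic enzyme, which turns malate into pyruvate. Its probe A_55_P2009952 (chr9:86475077-86475136) read 5.97 in the control, 11.2 at 4 h, 6.16 at 20 h and 5.19 at 32 h. Probe A_55_P2171413 (chr9:86475215-86475274) read 2.46, 4.42, 2.33 and 2.06 on the same arrays. Probe A_55_P2016842, the one printed above, read 2.32, 4.55, 2.59 and 2.08. Under the scaling used here, the 4 h array was the highest and the 32 h array the lowest on each of the 3 probes. The log2 ratios at 4 h were 0.91, 0.84 and 0.97 in that order, or 1.88-, 1.79- and 1.96-fold. Their mean was 0.91 ± 0.06 (SD over 3 probes of the same RNA, which are not replicates of the condition). The mean was 0.04 ± 0.12 at 20 h and -0.21 ± 0.05 at 32 h. At 32 h only the ratio of A_55_P2171413, -0.26, lay beyond its spot error of 0.20. The 32 h ratio of A_55_P2016842 changed sign with spike-in scaling or without scaling. At 4 h Me1, on its brightest probe, exceeded G6pdx by 1.04 ± 0.29, while Pgd exceeded Me1 by 0.24 ± 0.29, within the spot error.

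Idh1 encodes the cytosolic isocitrate dehydrogenase that turns isocitrate into 2-oxoglutarate. Its probe read 0.325 in the control, 0.267 at 4 h, 0.698 at 20 h and 0.775 at 32 h. Both late arrays were high, and the 4 h array was the lowest. The log2 ratio was -0.29 ± 0.21 at 4 h, 1.10 ± 0.21 at 20 h (2.14-fold) and 1.25 ± 0.21 at 32 h (2.38-fold). Each of the late ratios lay above 99.5% of the measured probes of its comparison. Idh1 exceeded every other member in both late comparisons, by between 1.02 (over Taldo1) and 1.31 (over Rpia) at 20 h and between 1.21 (over Rpe) and 1.51 (over Pgls) at 32 h, each with a spot error of about 0.29.

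At 4 h, 1 of the 11 member probes was at least 2-fold higher than the control (Pgd), against 8.63% of the 20392 probes measured on both arrays. Under median, quantile, spike-in or no scaling Pgd was below 2-fold and the count was 0. At least 2-fold lower were 0 member probes, against 7.91%, and 1 (Rpia) under median or spike-in scaling. At 20 h 1 member probe was at least 2-fold higher (Idh1), against 0.704% of 20448 probes, and 0 were lower, against 2.05%. With normexp background correction Idh1 stood at 0.93 at 20 h and the count of higher probes was 0. At 32 h the same probe of Idh1 was the 1 that was at least 2-fold higher, against 1.05% of 19969 probes, and 0 were lower, against 1.5%. Beyond the spot error in either direction lay 9 of the 11 probes at 4 h, against 75.8% of all measured probes. At 20 h these were 2 (Idh1 and Rpia), against 43.1%, and at 32 h 3 (Idh1, Pgls and 1 Me1 probe), against 43.8%. The 3 comparisons share the control array, so a deviation of that array would enter all of them.

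**Figure D2:**
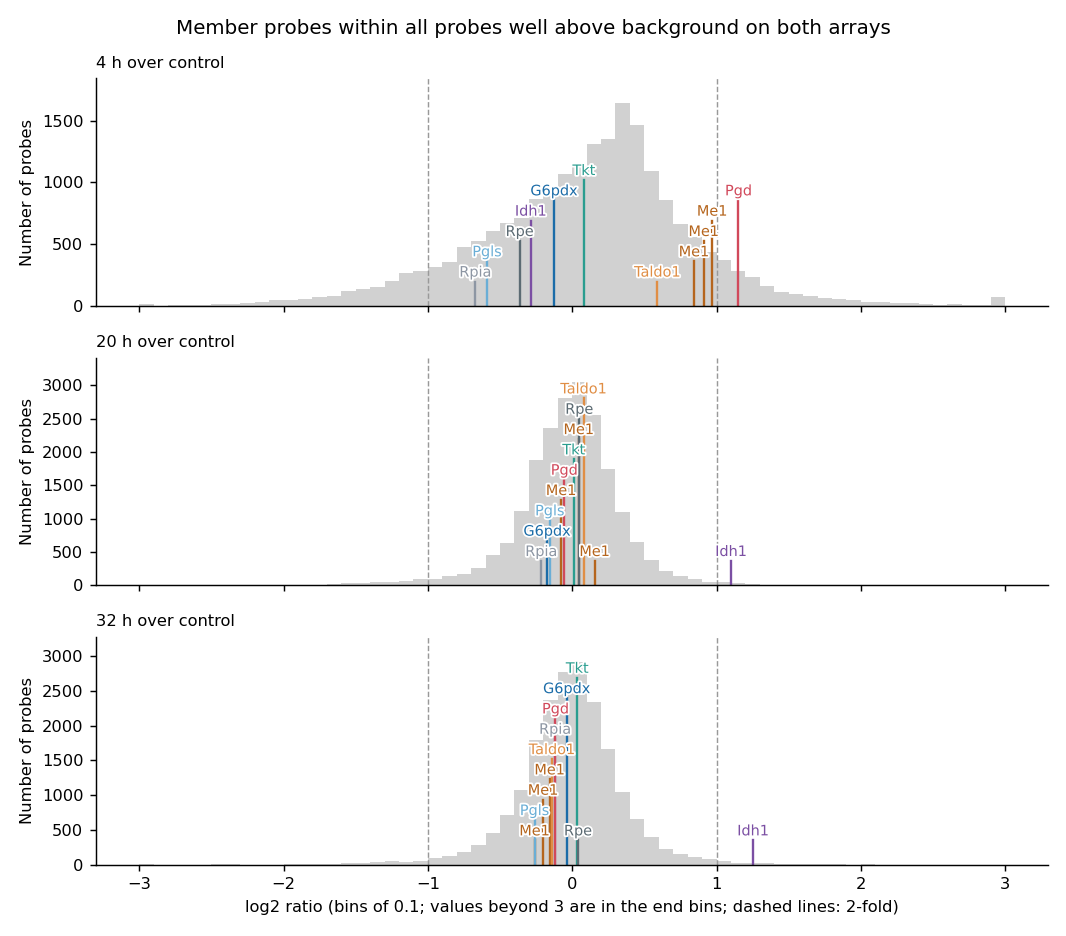
Number of probes (vertical axis) in bins of log2 ratio to the control (horizontal axis) for every probe measured in that comparison, with panels for 4 h, 20 h and 32 h. Colored lines give the ratio of each member probe, their heights carry no value, and dashed lines mark 2-fold. At 4 h the members spread from -0.67 (Rpia) to 1.15 (Pgd) inside a wide distribution, while at 20 h and 32 h Idh1 stands alone at 1.10 and 1.25.

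Taking the brightest probe of each gene, the 9 members had a median log2 ratio of -0.13 at 4 h, with 4 above 0 and 5 below. The median of all 15806 genes measured was 0.17 (quartiles -0.32 and 0.51), and 3 of the 9 members were above it (Pgd, Me1 and Taldo1). At 20 h the median of the members was 0.01 and that of all genes -0.0010, and at 32 h -0.12 and -0.00060. The spread of the members at 4 h crossed the branches. The oxidative genes had a median of -0.13 and the non-oxidative genes of -0.14, a difference of 0.01. That difference was -0.18 at 20 h and -0.07 at 32 h. In their 3 ratios to the control, Pgls and Rpia were nearest to each other of all pairs of members (Euclidean distance 0.174), followed by Pgd with Me1 (0.274). Idh1 was the farthest from the rest, 1.61 from its nearest member Rpe.

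The level at 4 h depends on how the arrays are put on 1 scale. Between 5 other scalings and the one used here, the ratio of all measured probes at 4 h moved by between -0.12 and -0.40. The ratio of Pgd at 4 h was between 0.75 and 1.03 under these scalings, that of Taldo1 between 0.19 and 0.47, and those of the 3 Me1 probes between 0.44 and 0.88. Rpia lay between -1.07 and -0.79 and Pgls between -0.99 and -0.61. G6pdx, within its spot error under the scaling used here, lay between -0.53 and -0.25, beyond that error. With the exception of Tkt, each member probe kept the sign of its 4 h ratio. For the late values of Idh1 the range was 1.09 to 1.43 at 20 h and 1.24 to 1.43 at 32 h. Some small late ratios of other members, those of G6pdx and Pgd among them, changed sign with spike-in scaling or without scaling. Others, those of Rpe among them, kept their sign under all 5.

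**Figure D3:**
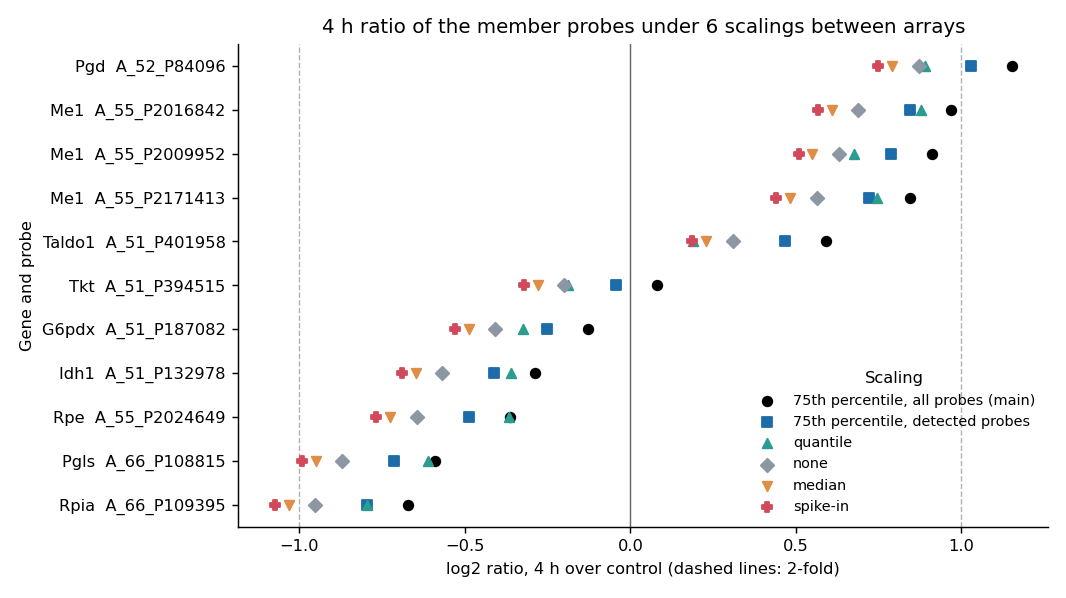
Log2 ratio at 4 h over the control (horizontal axis) of each member probe (vertical axis) under the 75th percentile of all probes and 5 other scalings, with dashed lines at 2-fold. Every probe moves to the left of the black circle under the other scalings. Pgd stays above 0 at 0.75 or more, Tkt moves from 0.08 to below 0, and Rpia passes -1 under median and spike-in scaling.

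The study read circadian change from the 20 h and 32 h arrays. Of the 11 member probes 0 were at least 2-fold higher at 20 h than at 32 h, against 0.193% of 20247 probes, and 0 were at least 2-fold lower, against 0.449%. Me1 was higher at 20 h on all 3 probes, with a mean log2 ratio of 0.25 ± 0.06 (SD over probes) and a range of 0.18 to 0.31. Each of these ratios had a spot error of 0.20, and the lowest, that of A_55_P2171413, lay within it. Taldo1 was higher at 20 h by 0.22 ± 0.20, above 91.3% of the measured probes. Both stayed above 0 under the 5 other scalings, where Taldo1 lay between 0.21 and 0.37. Idh1 was -0.15 ± 0.21 and G6pdx -0.14 ± 0.20, within the spot error, and the rest lay between -0.10 (Rpia) and 0.11 (Pgls). The members had a median of 0.01 and all genes of 0.0049.

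Around the pathway, a list of 17 other genes of sugar phosphate supply and use had 23 probes, of which 19 were measured at each time. Its median log2 ratio was 0.13 at 4 h, 0.02 at 20 h and 0.02 at 32 h. At 4 h 1 of the 19 probes was at least 2-fold higher and 2 were lower, against 8.63% and 7.91% of all measured probes. At 20 h 0 were past 2-fold either way, against 0.704% higher and 2.05% lower. At 32 h 0 were, against 1.05% and 1.5%. The higher one at 4 h was Hk2, a hexokinase that feeds glucose-6-phosphate. No probe of Hk1, another hexokinase on the list, was past 2-fold at any time. Hk2 read 0.512 in the control, 1.51 at 4 h, 0.266 at 20 h and 0.285 at 32 h. Its log2 ratios were 1.55 ± 0.21, -0.95 ± 0.21 and -0.84 ± 0.21. Lower at 4 h was H6pd, the glucose-6-phosphate dehydrogenase of the endoplasmic reticulum, at 2.42, 1.08, 1.99 and 2.40 on the 4 arrays and a 4 h ratio of -1.16 ± 0.20. Dera, the aldolase of deoxyribose-phosphate, was also lower at 4 h, with 0.521, 0.125, 0.497 and 0.495 and a ratio of -2.06 at 4 h. Tktl1, Tktl2 and Prps1l1 were well above background on 0 of the 4 arrays.

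A second list of 17 names for other NADPH sources, folate enzymes and NAD kinases held 16 genes with 25 probes, of which 20 were measured. Its median was -0.09 at 4 h, -0.0040 at 20 h and 0.02 at 32 h. Higher by 2-fold or more at 4 h were 2 probes, against 8.63% of all measured probes. They were those of Mthfd2 and Shmt2, both enzymes of mitochondrial folate metabolism. Mthfd2 read 0.472 in the control, 2.99 at 4 h, 0.401 at 20 h and 0.443 at 32 h, with a log2 ratio of 2.66 at 4 h. Shmt2 had a 4 h ratio of 1.02. At least 2-fold lower at 4 h was 1 probe, against 7.91% of all measured probes. It was that of Nadk2, the mitochondrial NAD kinase listed in the files as 1110020G09Rik, at -1.36.

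At 20 h 1 probe of this second list was 2-fold higher or more and 0 were lower, against 0.704% and 2.05% of all measured probes. At 32 h 1 was higher and 2 were lower, against 1.05% and 1.5%. The higher one was Aldh1l1 at both times. Aldh1l1, which makes NADPH from formyl-tetrahydrofolate, read 0.0726 in the control, 0.0675 at 4 h, 0.178 at 20 h and 0.187 at 32 h. As with Idh1, both late arrays were the high ones, with a log2 ratio of 1.29 ± 0.29 at 20 h and one of 1.36 ± 0.29 at 32 h. These spot errors were larger than the 0.21 of Idh1. Lower by 2-fold or more at 32 h were 2 probes, both of Mthfd1l, the formate-making enzyme of mitochondria, at -1.11 and -1.24.

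**Figure D4:**
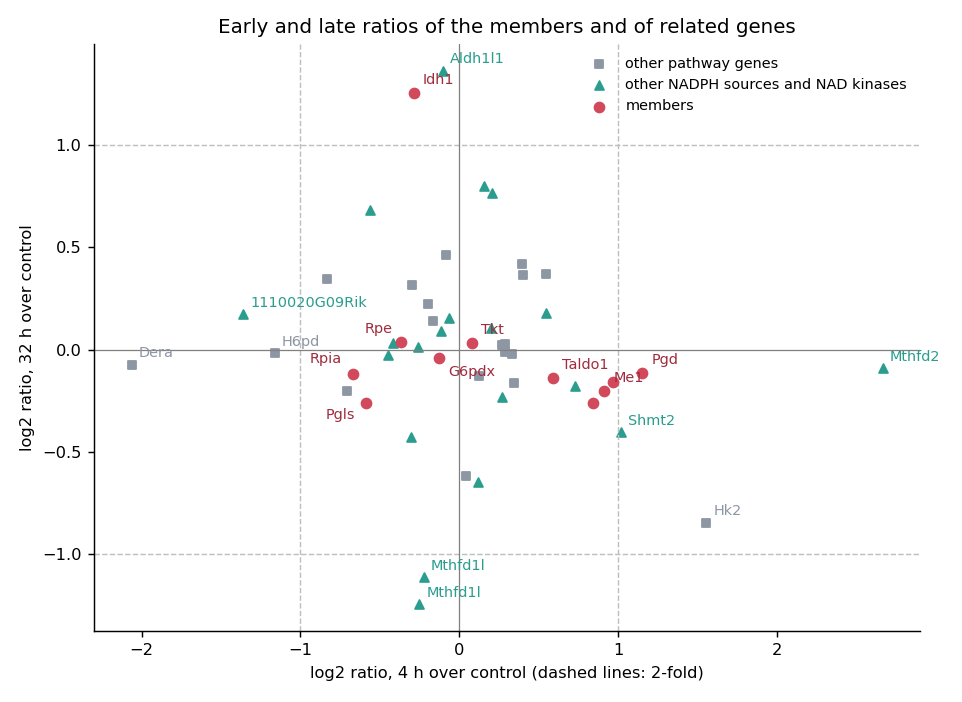
Log2 ratio at 4 h over the control (horizontal axis) against that at 32 h over the control (vertical axis) for member probes (circles), other pathway genes (squares) and other NADPH sources and NAD kinases (triangles), with dashed lines at 2-fold. Both axes share the control array, so no relation between them is read. Pgd and Me1 lie to the right and near 0 on the vertical axis, while Idh1 (-0.29, 1.25) and Aldh1l1 lie at the top.

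The genes outside the list whose 3 ratios to the control were nearest to those of G6pdx were Ganab, Arfgef2, Lrrc27, Smarcd1 and Zfp111, at Euclidean distances from 0.013 to 0.040. Ganab, for example, had ratios of -0.13, -0.17 and -0.05. Under the scaling used here these genes stood close to the control on all arrays. How many other probes did so was not counted.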

How the data were processed

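Total RNA of 4 samples (1 per condition) was labeled with Cy3 and hybridized to one-color Agilent Mouse GE 4x44K v2 arrays on 1 slide. The authors deposited spot intensities from Agilent Feature Extraction 10.7.3.1, with background and a spatial trend subtracted, mapped to mm9. They also deposited a signal table, in which each array's intensities are scaled by a single constant (checked to within 0.00024%). The members and gene lists were chosen with earlier results of these data known.

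From the deposited intensities, the mean log2 processed signal of each of 39429 probes was taken over spots without an outlier flag (125 to 161 spots per array were left out), less the 75th percentile over all probes of that array. A ratio was measured where 50% or more of the probe's spots exceeded background clearly, by the scanner's own call, on each array of the pair. The threshold was 2-fold, and the spot error of the scanner was propagated to each ratio. The number of arrays, 1 per condition, limits the precision. The study names SAM (two-class paired), which was not repeated. Named genes were all members, genes of both further lists at least 2-fold from the control at any time, and the 5 genes nearest to G6pdx.

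Of the alternatives tried, 13 were listed at the start: scalings by the median, quantiles, the percentile of probes detected on all arrays, spike-in probes or none, normexp background correction (offset 50), no detection filter, the flag for positive and significant signals, outlier spots kept, the deposited signal table, thresholds of 1.5-fold and 3-fold, and the median probe of a gene. After the data were seen, 2 were added: spike-in scaling without 1 of 8 probes, and a correction for the GC content of probes. The steps were tested on simulated data. Python 3.11.15, numpy 2.4.6, pandas 2.3.3 and limma 3.58.1 in R 4.3.3 were used.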

Additional observations from a re-analysis of the deposited data

Results flagged for a closer look

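Idh1 lay on opposite sides of the control early and late. Its log2 ratio was -0.29 at 4 h, 1.10 at 20 h and 1.25 at 32 h, each beyond the spot error of about 0.21, and the signs held under all 5 other scalings. With normexp background the ratio at 4 h was -0.21, within the spot error. With 1 array per condition, the difference between the early and the late ratios was not tested. It rests on 1 probe with 1 spot per array, and all 3 ratios share the control array.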

How the results depend on the processing

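The count of member probes at least 2-fold higher at 4 h, 1 (Pgd), was 0 under median scaling, quantile normalization, spike-in scaling with and without 1 probe, and no scaling. The count of those at least 2-fold lower at 4 h went from 0 to 1 (Rpia) under median scaling and spike-in scaling with and without 1 probe. With a threshold of 1.5-fold there were 5 higher and 2 lower at 4 h, and the 5 included all 3 Me1 probes. The share of all probes past 1.5-fold or 3-fold was not counted. With a threshold of 3-fold there were 0 higher at 4 h, 20 h and 32 h. With normexp background the count higher at 20 h was 0, since Idh1 stood at 0.93. The median over the member genes at 4 h, -0.13, was -0.49 under median scaling, -0.53 and -0.52 under spike-in scaling with and without 1 probe, and -0.41 without scaling, and the median at 20 h, 0.01, was 0.34 without scaling. The cause was not tested beyond the shift of the whole array that each of these scalings makes. Of 528 single-probe ratios over 12 settings, 469 moved by less than their spot error, and 0 of those past 2-fold changed sign. Ratios changed sign in 15 values without scaling and in 11 under spike-in scaling.

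No paired analysis was possible because each condition had 1 array. The largest shift under normexp background was 0.19, that of Idh1 at 32 h.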
